A study of Mus musculus with 6 samples.

Results

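The genes described here encode secreted proteins of the bone morphogenetic protein (BMP) pathway: the ligands Bmp2, Bmp4, Bmp5 and Bmp7 and the extracellular modulators Bmper and Grem1. They were taken by gene symbol, and every probe set annotated with exactly that symbol was used, which gave 10 probe sets for the 6 genes out of 45037 probe sets and 18193 genes on the arrays. The tissue was the dissected primitive streak with the node, from mouse embryos of embryonic days 7.75 to 8 with 0 to 2 somites, on a mixed C57BL/6 and 129/Sv background. The compared groups were 3 pools of Wnt3a null embryos and 3 pools of wild-type embryos, each pool made from 3 stage-matched embryos and hybridised to its own array. The comparison asked what the loss of Wnt3a, a Wnt ligand made in this tissue, changes in gene expression at a stage before the mutants look abnormal. The labels name no driver, clone or further allele, and do not say which part of Wnt3a the null allele alters.

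BMP ligands bind a complex of type I and type II serine/threonine kinase receptors, which phosphorylate Smad1, Smad5 and Smad9, and these enter the nucleus with Smad4 to change transcription. Outside the cell, antagonists such as noggin, chordin and gremlin hold ligands away from their receptors, so the balance of ligand and antagonist helps set the signal. In the gastrulating mouse embryo, BMP signalling is known for its part in posterior and extraembryonic mesoderm, the allantois, primordial germ cells and the heart.

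None of the 10 BMP probe sets passed the test between null and wild-type pools after adjustment over all probe sets (limma, threshold 0.05), and 0 of 45037 probe sets passed in the series, a background of 0%. At an unadjusted p under 0.05 stood 1 of the 10, against a background of 5.05%. By value, 7 of the 10 were higher and 3 lower in null pools, where 51.7% of all probe sets were higher. Null and wild-type signals did not overlap for 2 of the 10, against a background of 9.98%: Bmp2, higher in null, and the dimmest Bmp7 probe set, lower in null. The difference lay above 0 in each of the 3 same-numbered pairs of pools for 3 of the 10 (background 15%) and below 0 for 2 (background 13.7%). With 10 probe sets from 6 genes these shares are coarse, and probe sets of 1 gene are not independent.

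Signals are on the linear scale of the deposited table, in which the middle probe set had a mean log2 signal of 6.16, equal to a signal of 71.5. Of the 10 BMP probe sets 7 lay at or above that level and 3 below it. A signal compares pools for 1 probe set and does not rank genes against each other. In pooled tissue, fewer cells that make a transcript and less of it per cell cannot be told apart.

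**Figure D1:**
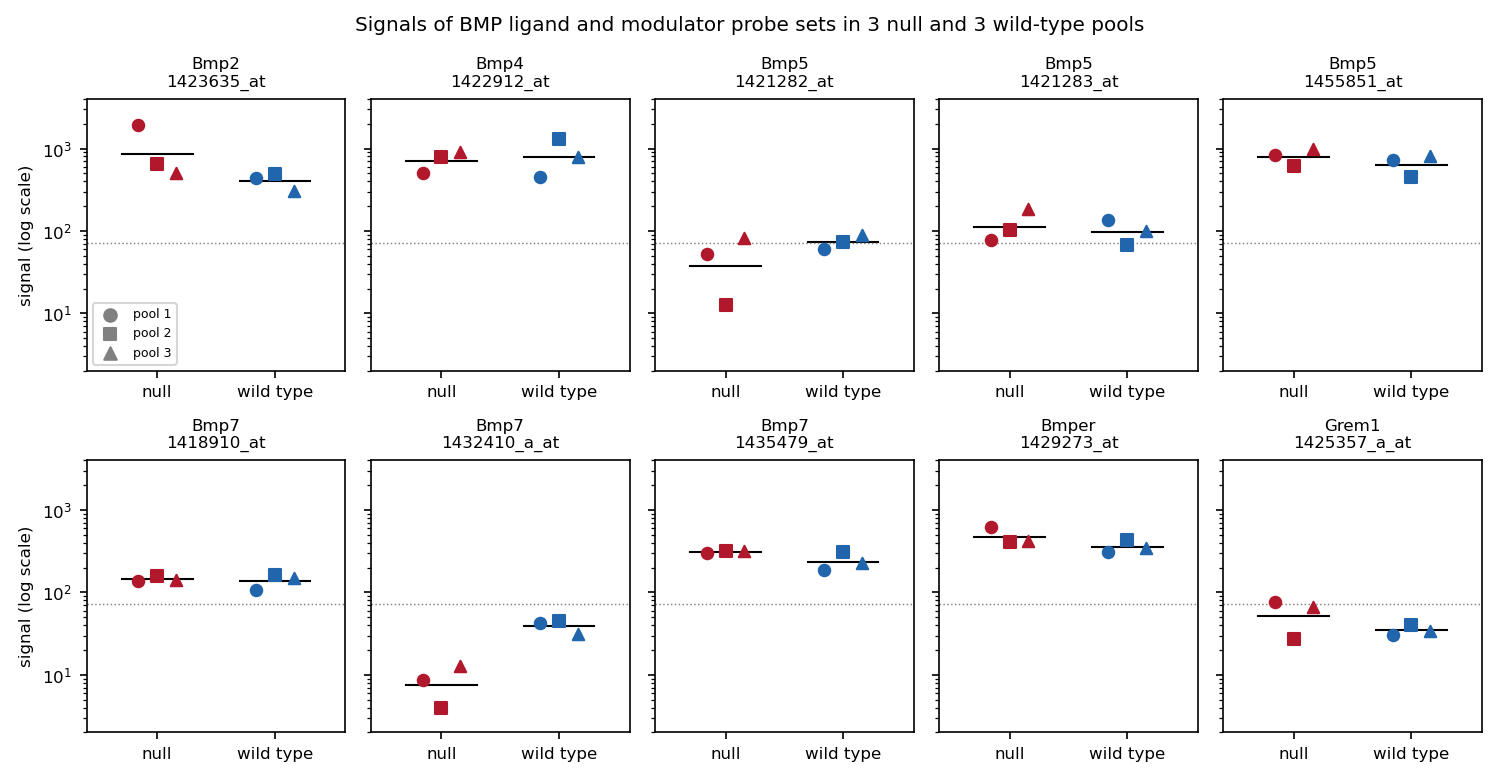
Signal (log scale) of each of the 10 probe sets in the 3 null and the 3 wild-type pools, with symbols for the pool number, a black line at the mean of log2 signals and a dotted line at the signal of 71.5. Null pool 1 stands far above the other pools for Bmp2, and the dimmest Bmp7 probe set lies below 50 in every pool.

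Bmp2, a ligand needed for heart and extraembryonic membrane formation in the mouse, had 1 probe set. The signal was 1945, 655 and 499 in null pools 1, 2 and 3, against 437, 490 and 306 in wild-type pools 1, 2 and 3. All null pools lay above all wild-type pools, but null pool 1 was far above the other null pools, while null pool 3 exceeded the highest wild-type pool by less than the wild-type pools differed among themselves. The log2 difference, null minus wild type, was 1.09 with a standard error of 0.56, a 2.13-fold higher signal in null that did not pass (limma, adjusted p = 1.00). Its 95% interval ran from -0.31 to 2.49, and so covers both no difference and several-fold ones. By pair the differences were 2.15, 0.42 and 0.71. Without null pool 1 the log2 difference was 0.50 (limma, adjusted p = 1.00), and without both number 1 pools it was 0.56. The exact two-sided permutation p for the 6 pools was 0.1, the smallest that 3 against 3 allows. The spread of Bmp2 within genotypes, 0.78 on the log2 scale, was above that of 96.6% of the probe sets at or above the middle signal, whose median was 0.28.

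Bmp4, the ligand made in posterior streak and extraembryonic mesoderm and needed for mesoderm, allantois and germ cells, likewise had 1 probe set. The signal was 503, 792 and 918 in null pools 1, 2 and 3, against 457, 1307 and 795 in wild-type pools 1, 2 and 3. The genotypes overlapped fully, and pool 1 was the lowest of its genotype in both. The log2 difference was -0.13 with a standard error of 0.47 and a 95% interval from -1.28 to 1.03 (limma, adjusted p = 1.00). Without null pool 1 the difference was 0.13, without wild-type pool 2 it was 0.25, and without both number 2 pools it was 0.17, so its sign rests on single pools.

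Like Bmp4, Bmp7 by its brightest probe set and some genes of mesoderm and of other tissues were lowest of their genotype in both number 1 pools. Msx2, a homeobox gene induced by BMP signals, had signals of 419, 585 and 682 in null pools 1, 2 and 3, against 419, 904 and 728 in wild-type pools 1, 2 and 3. Tbx4, a T-box gene of the allantois, had 19.8, 339 and 212 in the null pools, against 8.84, 122 and 168 in the wild-type pools. Tbx4 was singled out after its values were seen. With 1 probe set per gene, 5 of the 9 BMP target and feedback genes and 3 of the 7 extraembryonic mesoderm and allantois markers (Tbx4, Hand1 and Pitx1) were lowest in pool 1 of both genotypes, beside 18.3% of all genes. The other markers of that list did not share the pattern. Of all 6 pools, Ahnak was highest in null pool 1 and Tbx2 in wild-type pool 1. Postn was highest in pool 1 among the wild-type pools only. The pattern was not particular to mesoderm: 6 of the 8 visceral and yolk sac endoderm markers had it. It was found in 0 of the 10 neural plate and 0 of the 8 definitive endoderm markers. The lateral plate and cardiac list had it in 4 of 11 genes, and the blood and endothelium list in 3 of 10. Surface ectoderm and amnion had 3 of 9, and node and primitive streak 2 of 11. Counts in the remaining pathway lists were 4 of 10 receptors, 2 of 8 transducers, 1 of 17 other antagonists and modulators and 0 of 8 other ligands. The part of these genes in the spread of Bmp4 was not tested.

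Bmp5 and Bmp7 are closely related ligands that can replace each other in part in the mouse embryo. Bmp5 had 3 probe sets. The brightest, 1455851_at, had signals of 834, 610 and 978 in null pools 1, 2 and 3, against 722, 448 and 802 in wild-type pools 1, 2 and 3. The null pool was higher in each pair, by 0.21, 0.44 and 0.29 on the log2 scale, and pool 2 was the lowest in both genotypes, so the ranges overlapped while the pair differences were alike. The mean difference was 0.31 with a standard error of 0.33 and a 95% interval from -0.50 to 1.13 (limma, adjusted p = 1.00). With the replicate number as a block the standard error was 0.17, the interval ran from -0.21 to 0.84, and the adjusted p was 0.843 (limma).

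The dimmer Bmp5 probe sets did not repeat this pattern. Probe set 1421283_at had 78.2, 101 and 182 in null pools, against 136, 68.2 and 99.9 in wild-type pools, and its log2 difference of 0.21 changed sign without null pool 3 (-0.13), without wild-type pool 2 (-0.04) and without both number 3 pools (-0.11). Probe set 1421282_at had 53.2, 12.4 and 83.1 in null pools, against 61.0, 74.0 and 88.9 in wild-type pools. Null pool 2 alone was far below the rest there, and the log2 difference of -0.96 was -0.15 without it. The log2 ratio to the brightest Bmp5 probe set had an exact two-sided permutation p, null against wild type, of 0.8 for 1421283_at and 0.2 for 1421282_at.

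Bmp7 also had 3 probe sets, and they disagreed. The brightest, 1435479_at, had signals of 301, 318 and 316 in null pools 1, 2 and 3, against 188, 308 and 229 in wild-type pools 1, 2 and 3. The null pools lay close together and 2 of them above every wild-type pool, and only the values of null pool 1 and wild-type pool 2 crossed. The log2 difference was 0.39 with a standard error of 0.25 and a 95% interval from -0.23 to 1.02 (limma, adjusted p = 1.00). Probe set 1418910_at had 138, 160 and 142 in null pools, against 107, 165 and 151 in wild-type pools. Its log2 difference of 0.08, with a 95% interval from -0.54 to 0.69, turned to -0.11 without wild-type pool 1, to -0.07 without both number 1 pools and to -0.0030 after quantile normalization.

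The third Bmp7 probe set, 1432410_a_at, carries the suffix that the array's maker gives to probes shared by transcript variants of 1 gene. Its signal was 8.58, 3.95 and 12.8 in null pools 1, 2 and 3, against 42.3, 44.7 and 31.3 in wild-type pools 1, 2 and 3. All null values lay below all wild-type values, yet all 6 were under the middle signal of the arrays, where values vary widely on the log2 scale. The log2 difference was -2.36 with a standard error of 0.48, a 5.15-fold lower signal in null that did not pass over all probe sets (limma, adjusted p = 0.515). It was the BMP probe set with an unadjusted p under 0.05 (0.00303, limma). After 50 was added to each signal the difference was -0.61, and in leaving out single pools it ran from -2.74 to -1.90. The log2 ratio of this probe set to 1435479_at was -5.36 in null and -2.61 in wild-type pools, with an exact two-sided permutation p of 0.1, the smallest possible here. The dim probe set alone had the same exact permutation p of 0.1, so that of the ratio adds no separate support. The mean of the 3 Bmp7 probe sets had a log2 difference of -0.63, opposite in sign to both brighter ones, and the mean of the 3 Bmp5 probe sets one of -0.14.

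**Figure D2:**
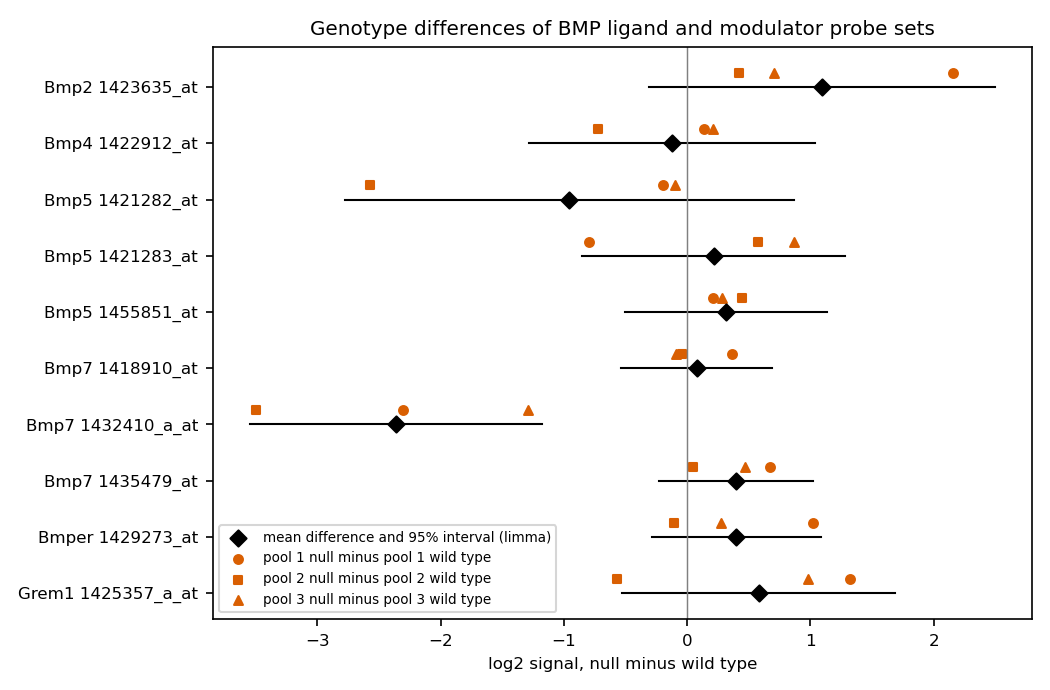
Log2 difference in signal, null minus wild type, of each probe set, with its 95% interval from limma (black) and the differences of the 3 same-numbered pairs of pools (orange). The intervals of 9 probe sets include 0, and that of the dimmest Bmp7 probe set runs from -3.55 to -1.18.

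Bmper, the relative of the fly protein Crossveinless 2, binds BMP ligands at the cell surface and can limit or promote their signal. Its probe set had signals of 620, 404 and 417 in null pools 1, 2 and 3, against 306, 434 and 345 in wild-type pools 1, 2 and 3. Null pool 1 was the highest of the 6 pools and wild-type pool 1 the lowest, and the other 4 lay between. The log2 difference was 0.40 with a standard error of 0.28 and a 95% interval from -0.29 to 1.08 (limma, adjusted p = 1.00). By pair it was 1.02, -0.10 and 0.27, and without both number 1 pools the mean difference was 0.08.

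Grem1, a secreted antagonist of Bmp2, Bmp4 and Bmp7 known from limb and kidney, was dimly measured. Its signal was 76.8, 27.3 and 67.2 in null pools 1, 2 and 3, against 30.7, 40.4 and 34.1 in wild-type pools 1, 2 and 3. Null pools 1 and 3 were above and null pool 2 below all wild-type pools. The log2 difference was 0.58 with a standard error of 0.45 and a 95% interval from -0.53 to 1.69 (limma, adjusted p = 1.00). Without null pool 2 it was 1.04, which did not pass either (limma, adjusted p = 0.739), and with 50 added to each signal it was 0.30.

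Canonical Wnt signals reach genes through TCF and LEF factors, so the promoters were searched for their binding letters. RefSeq promoters of assembly GRCm38.p6, from 250 bases before to 50 after the transcription start, matched 4 of the 6 genes: Bmp4, Bmp5, Bmper and Grem1. Matches of CTTTG followed by 2 bases that were each A or T, on either strand, occurred in 0 of the 4 and in 16.9% of all 32851 promoters. The shorter core CTTTG, with any bases after it, occurred in the promoters of Bmper (2 matches) and Grem1 (1 match) and in 53.9% of all promoters. Both are printed 5′ to 3′ on the strand of the gene because they hold the core, with the core in capitals (CAAAG where it lies on the opposite strand). Bmper lies on the plus strand, its promoter at chr9:23222826-23223125, and Grem1 on the minus strand, its promoter at chr2:113758599-113758898.
Bmper: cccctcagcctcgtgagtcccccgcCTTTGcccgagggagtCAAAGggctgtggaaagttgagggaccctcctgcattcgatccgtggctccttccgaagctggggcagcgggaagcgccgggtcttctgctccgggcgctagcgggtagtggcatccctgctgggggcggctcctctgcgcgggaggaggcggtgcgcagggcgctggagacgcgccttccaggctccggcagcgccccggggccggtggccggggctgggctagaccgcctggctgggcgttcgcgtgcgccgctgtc
Grem1: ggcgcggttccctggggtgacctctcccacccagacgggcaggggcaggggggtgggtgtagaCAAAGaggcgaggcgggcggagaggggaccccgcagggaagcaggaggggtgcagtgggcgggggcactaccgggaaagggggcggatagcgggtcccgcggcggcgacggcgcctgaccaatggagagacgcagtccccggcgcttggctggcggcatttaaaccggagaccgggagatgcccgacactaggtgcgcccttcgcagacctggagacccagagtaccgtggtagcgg
The Bmper matches begin 225 and 209 bases before the start, and the Grem1 match 187 bases before it. G and C made up 72.7% of the Bmper and 70.7% of the Grem1 promoter, 64.0% of that of Bmp4 and 43.3% of that of Bmp5, beside a median of 52.7% over all promoters. Longer-range elements lie outside these windows and were not analysed here.

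The remaining pathway genes were read from the same fit, with 1 probe set per gene, the one with the highest mean. With 1 probe set per gene, 5 of the 6 ligand and modulator genes had a higher value in null pools, with a median log2 difference of 0.40, beside 50.8% of all genes and a median of 0.00. That count rests on the brightest probe set: with the mean over each gene's probe sets, 3 of the 6 were higher and the median was 0.13. No gene of any pathway list passed over all probe sets (limma), and none of all 18193 genes did, a background of 0%. At an unadjusted p under 0.05, 2.56% of all genes were higher and 1.9% lower in null pools.

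Of 8 other measured BMP and GDF ligands, 3 had higher and 5 lower values in null pools, with a median log2 difference of -0.14, and at an unadjusted p under 0.05 stood 1 in each direction. Gdf5, a ligand of joint development, had 6.52 ± 2.52 in null pools, against 29.0 ± 5.35 in wild-type pools (SD, n = 3 each), below the middle signal throughout (limma, adjusted p = 0.381). Its log2 difference of -2.20 was -0.48 with 50 added to each signal. Gdf3, a relative active in the early embryo, had 101 ± 18.4 in null pools, against 58.3 ± 14.1 in wild-type pools (limma, adjusted p = 0.966). The next in order of p was Bmp10, a heart ligand, with 5.16 ± 2.25 in null pools, against 8.90 ± 3.65 in wild-type pools, and 5 of the 8 genes lay below the middle signal.

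Of 17 other measured extracellular antagonists and modulators, 7 had higher and 10 lower values in null pools, with a median log2 difference of -0.10, and 2 were higher at an unadjusted p under 0.05. These 2 were dim: Nog (noggin) had 17.0 ± 13.0 in null pools, against 3.65 ± 0.50 in wild-type pools, and the follistatin relative Fstl3 had 76.3 ± 7.98 in null pools, against 21.7 ± 13.5 in wild-type pools (limma, adjusted p = 0.879 and 0.903). With 50 added to each signal, the log2 difference of Nog was 0.30, against 1.94 as deposited, and its unadjusted p was 0.131 (limma). For Fstl3 it was 0.83, against 2.12 as deposited. The unadjusted p of Fstl3 was smaller with 50 added, 0.0021 against 0.0206, with an adjusted p of 0.775 (limma). The third by p, the antagonist Sostdc1, had 8.43 ± 9.10 in null pools, against 21.6 ± 4.76 in wild-type pools. Brighter antagonists, named after their values were seen, went in different directions by value. The modulators Fstl1 and Twsg1, brighter than Cer1 and Chrd below, had small log2 differences of 0.18 and -0.10. Chrdl1 and Bmp1, brighter than Chrd, had log2 differences of 0.47 and 0.26. Chrdl1 had 158, 152 and 161 in null pools, against 141, 75.2 and 136 in wild-type pools. Fst (follistatin), which binds activin and some BMPs, had 5121, 2938 and 3194 in null pools, against 6918, 5244 and 5065 in wild-type pools. Cer1, an antagonist of BMP, Nodal and Wnt ligands, had 1163, 265 and 748 in null pools, against 215, 156 and 462 in wild-type pools. Chrd (chordin), made in the node, had 250, 34.2 and 77.7 in null pools, against 141, 87.6 and 111 in wild-type pools. The log2 differences were -0.65 for Fst and 1.30 for Cer1, both with overlapping pools, and -0.35 for Chrd, which was 0.33 without null pool 2 and 0.16 without both number 2 pools. Fst was lower in null in all 3 pairs, with an unadjusted p of 0.0361 and an adjusted p of 0.841 with the pool number as a block (limma), and an adjusted p of 0.0658 with trend and robust options as well.

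Receptors and transducers went both ways by value. Of 10 receptors and co-receptors 5 had higher and 5 lower values, with a median of 0.06, and of 8 signal transducers 4 each, with a median of -0.05. None of them had an unadjusted p under 0.05 (limma). The smallest p among receptors was that of Acvrl1, an endothelial type I receptor, with a log2 difference of 0.63, followed by Acvr2b with -0.18 and Acvr1 with 0.22. Map3k7, a kinase of the Smad-independent branch, had 473 ± 136 in null pools, against 710 ± 119 in wild-type pools (SD, n = 3 each), a log2 difference of -0.61. Smad1, a transducer of BMP signals, had 2957 ± 414 in null pools, against 3738 ± 681 in wild-type pools, and Smurf1, a ubiquitin ligase that acts on Smads, 245 ± 68.3 in null pools, against 197 ± 20.1 in wild-type pools. The mean of all probe sets of a gene turned the sign for Acvr2b (0.39) and Smurf1 (-0.62). That mean was smaller in size for Map3k7 (-0.10) and Smad1 (-0.02), against -0.61 and -0.33 for their brightest probe sets. It was larger for Acvrl1 (1.31) and Acvr1 (0.44), against 0.63 and 0.22 for their brightest probe sets.

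Among 9 BMP target and feedback genes 6 had higher and 3 lower values in null pools, with a median of 0.17, and none had an unadjusted p under 0.05 (limma). With the pool number as a block, Id2, an inhibitor of bHLH factors, was below it (limma, unadjusted p = 0.0315, adjusted p = 0.838), and the adjusted p was 0.0542 with trend and robust options as well. Id2 had signals of 3763, 7032 and 6769 in null pools 1, 2 and 3, against 2027, 4410 and 4855 in wild-type pools 1, 2 and 3, higher in null in every pair although the genotypes overlapped. The mean over its probe sets gave a log2 difference of 0.20. With the brightest probe set, log2 differences were 0.68 for Id2, 0.41 for Bambi, 0.54 for Smad6, -0.05 for Id1, -0.24 for Msx2 and -0.60 for Msx1. Smad6 was at -0.03 without wild-type pool 1, and Id1 at 0.05 without null pool 3.

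**Figure D3:**
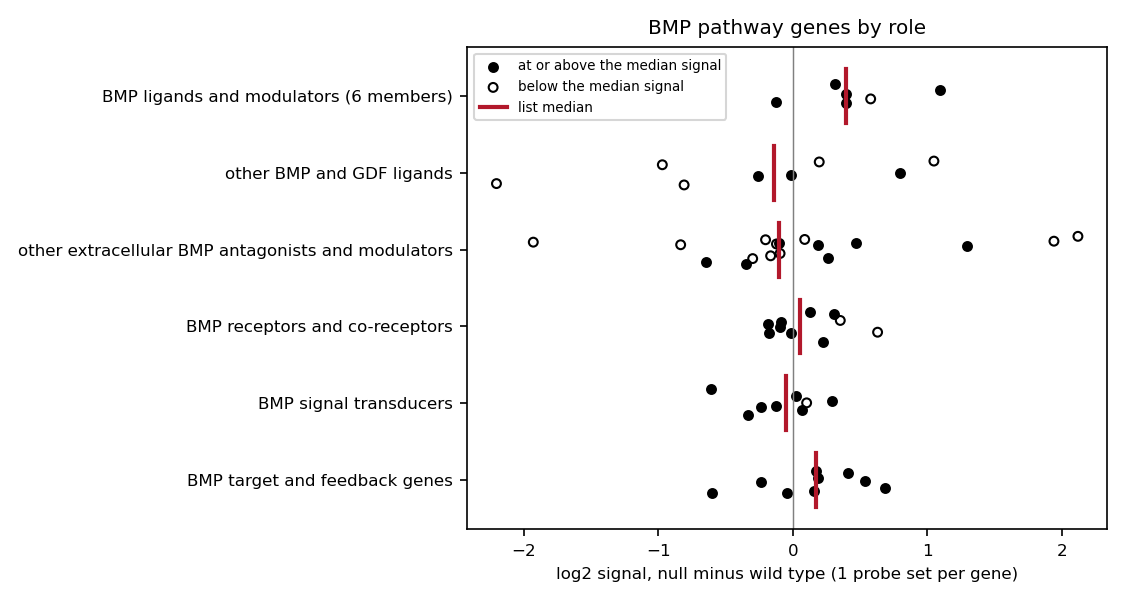
Log2 difference, null minus wild type, of BMP pathway genes by role, with 1 point per gene (filled at or above the middle signal, open below it) and a red line at the list median. Points beyond 1.5 in either direction are all open, and the medians of the 6 lists lie between -0.14 and 0.40.

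The pools differed in more than genotype labels. Wnt3a, with 1 probe set, had signals of 961, 761 and 1009 in null pools, against 864, 1058 and 996 in wild-type pools, which leaves the labels unchecked because RNA outside the altered part can still be made. Gapdh probes at the 3′ end of the transcript gave 2.09 to 2.39 times the signal of those at the 5′ end in null pools and 2.51 to 3.00 times in wild-type pools, and the same ratio for actin was 2.38 to 3.83 in null pools and 2.68 to 3.69 in wild-type pools. These ratios bear on RNA integrity; they were apart between genotypes for Gapdh and overlapped for actin. The Y-linked Eif2s3y signal was 4.31 in wild-type pool 1 and 1053 to 1788 on the other arrays, and median signals per array ran from 73.6 to 86.1. Of 12 node and primitive streak markers 11 were measured, 1 of them below the middle signal, and 9 had lower values in null pools. Their summed signal was 6032 to 9184 in null pools, against 11295 to 12079 in wild-type pools. Fst alone made up 5121, 2938 and 3194 of it in null pools 1, 2 and 3, against 6918, 5244 and 5065 in wild-type pools. Of 11 lateral plate and cardiac markers, 2 of them below the middle signal, 9 had higher values in null pools. The sum was 5447 to 6294 there, against 3153 to 4587 in wild-type pools. Of 10 neural plate markers, 4 of them below the middle signal, 8 had higher values in null pools. The sum was 6846 to 8842 there, against 4173 to 5180 in wild-type pools. Its largest parts were Sox2, Irx3 and Zic5, with means of 2388, 2098 and 1348 in null pools, against 2051, 794 and 812 in wild-type pools. The streak, lateral plate and neural sums did not overlap between genotypes, and their part in the Bmp2 values was not tested.

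Null pool 1, the pool with the high Bmp2 signal, also stood highest of the 6 for Bmper and Grem1 and for some marker lists. The definitive endoderm sum was 18886 in null pool 1, 11336 to 13193 in the other null pools and 11445 to 16146 in wild-type pools. Epcam made up 7799 of it in null pool 1 and 7335 in wild-type pool 1, against 3636 to 4802 on the other arrays. By value, 7 of the 8 markers were higher in null. The exception, Sox17, had 3085, 2942 and 2596 in null pools, against 3434, 3377 and 3188 in wild-type pools. The sum for extraembryonic mesoderm and allantois was 3781 in null pool 1, 1553 and 1739 in the other null pools and 1272 to 1648 in wild-type pools, and 3515 of it came from Ahnak, while Tbx4 was low in that pool. The sum for visceral and yolk sac endoderm overlapped, with 40963 to 58540 for null against 34543 to 83848 for wild type. Sums also overlapped for surface ectoderm and amnion, with 17656 to 19547 for null against 15355 to 18454 for wild type, and for blood and endothelium, with 2366 to 3010 for null against 2077 to 2854 for wild type. By value, 9 of the 10 blood and endothelium markers were nonetheless higher in null, with a median log2 difference of 0.73, beside 0.74 for the lateral plate and cardiac list. Of these 10 markers, 4 lay below the middle signal. The 1 lower in null, Lmo2, had 271, 507 and 341 in null pools, against 693, 633 and 672 in wild-type pools. It alone of the list had an unadjusted p under 0.05 (0.0235, adjusted p = 0.930, limma). The part of any list in the values of null pool 1 was not tested.

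**Figure D4:**
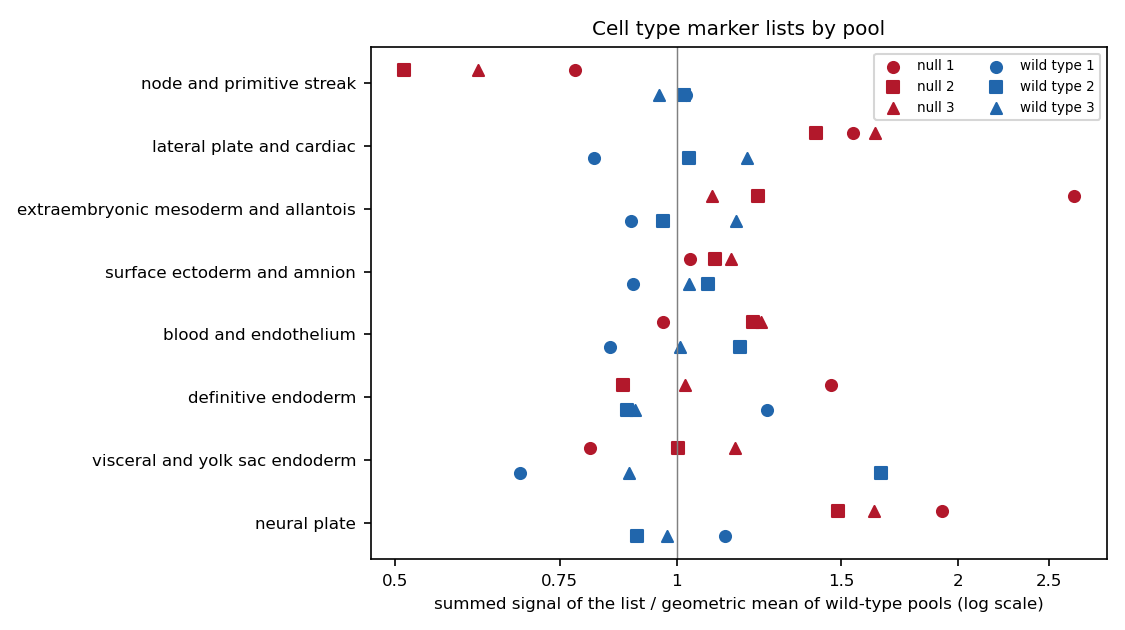
Summed signal of each cell type marker list in each pool, divided by the geometric mean of the 3 wild-type pools (log scale), with null pools in red above wild-type pools in blue and symbols for the pool number. Null and wild-type pools are apart for the streak, lateral plate and neural lists, and null pool 1 stands out for extraembryonic mesoderm.

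The genes whose log2 signals ran most like each BMP probe set over the 6 arrays were sought among 8009 other genes with a mean log2 of 8 or more. The points share the array, its scaling and its pool, and with 6 arrays high likeness is common, so Pearson's r is given as a description. For Bmp2 the first 3 were Gpx3 (r = 0.999), Zfp263 and Tubgcp3, and 24 genes exceeded 0.95. Gpx3, a secreted glutathione peroxidase, had 3883, 1523 and 1202 in null pools, against 1099, 1114 and 775 in wild-type pools, so it shared the high value of null pool 1. For Bmp4 they were Ddx18 (r = 0.990), Simc1 and Rpl19, with 52 genes over 0.95. For Bmp5 probe set 1455851_at they were Top1 (r = 0.993), Rab5a and Isg20l2, and for 1421283_at Ccdc61 (r = 0.975), Bloc1s5 and Arl3. For Bmp7 probe set 1435479_at they were Rad9a (r = 0.989), Pttg1ip and Ptpn13, and for 1418910_at Ddx24 (r = 0.987), Nosip and Uqcrfs1. For Bmper they were Ahr (r = 0.987), Scarb1 and Mxra8, with 13 genes over 0.95. Ahr, the aryl hydrocarbon receptor, had 665, 287 and 258 in null pools, against 126, 321 and 204 in wild-type pools. No gene appeared among the first 3 of more than 1 BMP probe set.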

How the data were processed

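Each embryo gave 30 to 50 ng of total RNA for a first amplification, per the labels' protocols; products of 3 embryos were combined (600 ng), amplified again, labelled and put on 1 Affymetrix mouse genome array. The deposited table holds 1 linear intensity per probe set and array. RMA is named in the submitters' processing notes, but the deposited intensities are linear with a 2% trimmed mean of 500 on every array, the form of scaled signals; what step made them is unknown. Of 45101 probe sets, 64 controls were left out; of 45037, 34945 carry 1 gene symbol, 932 several and 9160 are not listed. All 6 genes matched RefSeq by gene ID.

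Intensities were turned to log2 with no floor or filter and tested in R 4.3.3 with limma 3.58.1 (lmFit, eBayes), null minus wild type, two-sided, with Benjamini-Hochberg adjustment over 45037 probe sets. Arrays carry no counts, so their number limits the precision. The fit was tested on simulated data. Members and lists were chosen with earlier results of these data known. Named were all member probe sets, the 3 list genes with the smallest p, any past the threshold, and Smad6, Id1 and Msx2. Fst, Cer1, Chrd, Chrdl1, Bmp1, Fstl1, Twsg1, Tbx4 and the markers given with values were named after their values were seen.

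The labels number the pools 1 to 3 in both genotypes. Deviations from genotype means correlated at 0.422, 0.454 and 0.282 between same-numbered pools over 18088 probe sets with a mean log2 above 7. Over all probe sets they correlated at 0.0537, 0.0524 and 0.0338. The pairing bound of 0.1 was thus met for brighter probe sets only, a restriction chosen with earlier results known. What a number shares is not stated in the labels. Alternatives were those the closing section names, log2(signal + 50), 1 probe set per gene, a filter at the median, array weights, median centring and cyclic loess; leaving out both pools of a number was added after seeing the data.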

Additional observations from a re-analysis of the deposited data

How the results depend on the processing

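For the 10 BMP probe sets, 178 of 189 alternative values kept their direction and stayed short of the threshold, and 11 changed sign. None of the 10 passed under any alternative run, with the smallest adjusted p at 0.453 for Bmp2 (limma, replicate block with trend and robust options; 0.843 with the block alone). Over all probe sets the count past the threshold was 0 in the planned fit and with the replicate block alone. It was 1 with trend and robust options and 22 with these and the block. No member probe set and no brightest probe set of a pathway list gene was among them. Other probe sets of the list genes were not counted. At an unadjusted p under 0.05 were 2273 probe sets in the planned fit and 2640 with the block. The replicate block changed no adjusted call among the genes named here. The mean over a gene's probe sets turned the sign for Bmp5 (-0.14), Bmp7 (-0.63), Acvr2b (0.39) and Smurf1 (-0.62), since these probe sets disagree, and quantile normalization turned it for Bmp7 1418910_at (-0.0030). When 1 pool or 1 pair of pools was left out, signs changed for Bmp4 (-0.51 to 0.25), Bmp5 1421283_at (-0.13 to 0.72), Bmp7 1418910_at (-0.11 to 0.20), Chrd (-1.11 to 0.33), Id1 (-0.14 to 0.051) and Smad6 (-0.028 to 0.99); the cause was not tested. Bmp2 ranged from 0.50 to 1.48. Signals under the median of 71.5 limit what Grem1, 1 Bmp5 and 1 Bmp7 probe set can show.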
